A study of Mus musculus with 18 samples.

Results

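The integrated stress response was described here through 10 genes, fixed by their names: the 4 kinases that phosphorylate the initiation factor eIF2 (*Eif2ak1*, *Eif2ak2*, *Eif2ak3* and *Eif2ak4*), the transcription factor genes *Atf4* and *Ddit3*, the phosphatase subunit genes *Ppp1r15a* and *Ppp1r15b*, and the late effector genes *Trib3* and *Chac1*. They are 10 of the 22524 genes counted in every mouse. The symbols were matched to Ensembl identifiers, and all 10 passed the filter on low counts. Liver RNA came from 10 female *Rps2*-A226Y mice and 8 female wild-type (WT) mice, all 15 months old, with 1 library per mouse. The knock-in was made in embryonic stem cells of another strain. Its line was backcrossed to C57BL/6 before it was crossed with C57BL/6 Cre mice. A226Y animals are heterozygous for a knock-in *Rps2* allele whose mutated protein makes the ribosome error-prone, and the allele is switched on when Cre removes a floxed stop cassette. Cre was driven by the ubiquitous CMV promoter, and the WT mice also express Cre. The cassette was never removed from every cell, so A226Y liver is a mosaic in which the remaining cells carry 1 silent *Rps2* allele. The effect of the mutant protein and that of a lower *Rps2* dose cannot be told apart in this comparison.

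Each kinase senses a different stress: *Eif2ak1* (HRI) heme shortage and mitochondrial stress, *Eif2ak2* (PKR) double-stranded RNA, *Eif2ak3* (PERK) unfolded protein in the endoplasmic reticulum, and *Eif2ak4* (GCN2) uncharged tRNA and stalled ribosomes. Phosphorylated eIF2 slows initiation on most mRNAs but lets *Atf4* mRNA be translated, and ATF4 then raises genes for amino acid supply and stress relief, with *Ddit3* (CHOP), *Trib3* and *Chac1* among them. The phosphatase subunits GADD34 (*Ppp1r15a*, inducible) and CReP (*Ppp1r15b*, constitutive) close the loop by removing the phosphate. Read counts measure mRNA, and they show neither phosphorylation nor the translation of *Atf4*.

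Short promoter windows are shown for the 4 genes with a match to a searched motif, *Trib3*, *Chac1*, *Ppp1r15a* and *Eif2ak2*. RefSeq promoter sequences (GRCm38.p6, from 250 bases before to 50 bases after the gene start) were given for 9 of the 10 genes, *Ppp1r15b* being the exception. They were searched on both strands for the C/EBP-ATF response element TGATGNAAN, the cyclic AMP response element TGACGTCA, the interferon-stimulated response element (GAAA and GAAA, 2 bases apart) and the endoplasmic reticulum stress element (CCAAT and CCACG, 9 bases apart). Of all 32851 promoter windows, 3.95%, 1.79%, 3.44% and 0.119% held a match. Each window is written in the direction of its gene, with the match in capitals and 8 flanking bases on either side. The matches in *Chac1* and *Trib3* read on the opposite strand, and no match overlapped another.
Chac1, ATF element, chr2:119351040-119351064, plus strand: tccctgccGTTGCATCActcctgcc
Trib3, ATF element, chr2:152344031-152344055, minus strand: agctcaggTTTACATCAgccgggcg
Ppp1r15a, cyclic AMP element, chr7:45526265-45526288, minus strand: ctctccggTGACGTCAgcacagcg
Ppp1r15a, interferon element, chr7:45526471-45526496, minus strand: aataaaagGAAAGGGAAAtggcacgg
Eif2ak2, interferon element, chr17:78882537-78882562, minus strand: tccgccggGAAAACGAAAcagaagag
Distances are counted from the RefSeq start, which lies 13 bases downstream of the GENCODE start in *Chac1* and 28 bases upstream of it in *Trib3*. The match began 194 bases before the RefSeq start in *Chac1* and 13 bases after it in *Trib3*, where it lies upstream of the GENCODE start. In *Ppp1r15a* the cyclic AMP element began 12 bases and the interferon element 220 bases before the start, and in *Eif2ak2* the interferon element began 18 bases after it. The other 5 genes with a window, *Atf4*, *Ddit3*, *Eif2ak1*, *Eif2ak3* and *Eif2ak4*, held none of the 4 motifs. A match describes letters and does not show that a factor binds there.

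Total counts per mouse ran from 23850565 to 62126131 in A226Y and from 25869192 to 34918732 in WT mice. The targeted gene *Rps2* was at 46.9 to 83.0 CPM (counts per 1000000 counts of the library, scaled by the TMM method) in A226Y and at 104 to 143 CPM in WT mice, so that the groups did not overlap. The hepatocyte markers *Alb* (albumin) and *Ttr* (transthyretin) fitted the label liver, with a mean of 96060 and 4322 CPM in A226Y and of 90850 and 5034 CPM in WT mice. Of the 12 hepatocyte markers listed, 3 were higher and 2 lower in A226Y, with a median log2 fold change of 0.082. Among macrophage markers 11 of 12 had a negative log2 fold change and 1, *Clec4f*, was lower (adjusted p = 0.0261). Of the 11 lymphoid, 8 endothelial, 3 neutrophil and 5 cholangiocyte markers tested, none passed the test. All 11 lymphoid markers had a negative log2 fold change (median −0.414), the 3 neutrophil (median 0.737) and 5 cholangiocyte (median 0.207) markers a positive one, and 4 of the 8 endothelial markers a positive one (median −0.006). Among the 9 stellate markers 2 were lower, the collagen genes *Col1a1* and *Col3a1*, but 5 of the 9 had a positive log2 fold change (median 0.003). In bulk tissue, fewer cells of a type and less RNA per cell cannot be told apart.

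Of the 10 stress response genes, 1 was higher (*Trib3*) and 1 lower (*Chac1*) in A226Y liver at an adjusted p-value under 0.05 (edgeR quasi-likelihood test, adjusted over all 13353 tested genes). Over all tested genes, 14.3% passed, 7.27% higher and 7.03% lower. The median log2 fold change of the 10 genes was 0.007, and that of all tested genes was −0.004. The same 2 genes were those with an unadjusted p-value under 0.05, a mark that 29.6% of all tested genes reached. No member had groups that did not overlap, as 0.637% of all tested genes did. With 10 genes, 2 calls are close to the share of calls in the whole table.

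**Figure D1:**
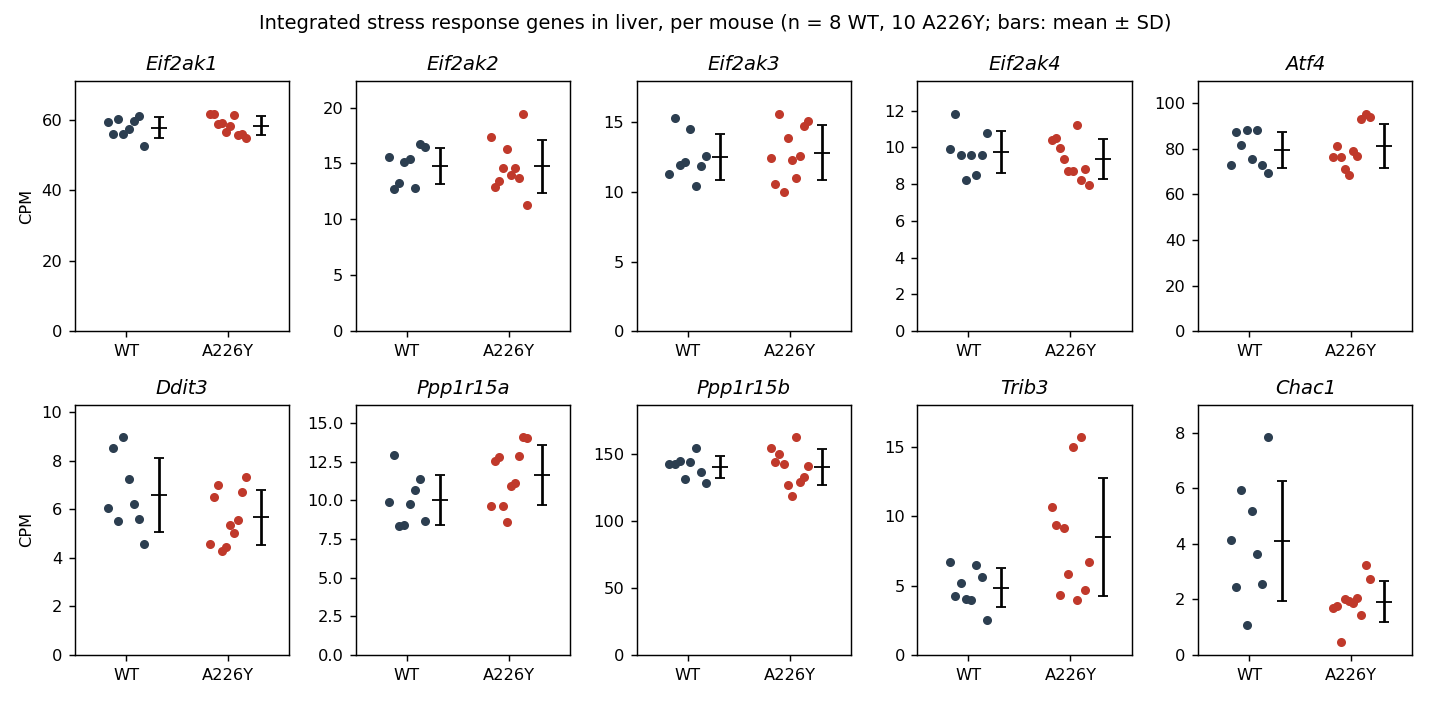
Expression of the 10 genes in each mouse, in CPM on axes that start at 0, for 8 WT (dark) and 10 A226Y (red) mice, with mean ± SD beside the points. *Trib3* reached 15.7 CPM in A226Y against at most 6.72 CPM in WT, *Chac1* stayed at or under 3.23 CPM in A226Y against up to 7.83 CPM in WT, and the other genes overlapped over most of their range.

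The kinase mRNAs did not pass the test, and their group means lay close together. *Eif2ak1* (ENSMUSG00000029613) had a lowest, median and highest value of 54.7, 58.5 and 61.7 CPM in A226Y mice and of 52.4, 58.4 and 61.1 CPM in WT mice. A226Y and WT values overlapped over nearly their whole range, and the log2 fold change was 0.01 (standard error, SE, 0.04, 95% interval −0.07 to 0.10, adjusted p = 0.855). This HRI gene lies on chromosome 5 of GRCm38 from 143817788 to 143904251, and its exons share 487 bases with *Aimp2* and 172 with *Ankrd61* on the other strand. Whether the counting used strand is not given in the sources used here, so some of its counts may belong to these neighbours.

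*Eif2ak2* (ENSMUSG00000024079), the kinase that is itself an interferon-stimulated gene, was at 11.2, 14.3 and 19.5 CPM in A226Y and at 12.7, 15.2 and 16.7 CPM in WT mice (lowest, median, highest). The A226Y values lay on both sides of the WT range, and the log2 fold change was 0.00 (SE 0.09, 95% interval −0.19 to 0.19, adjusted p = 0.996). Of 23 tested interferon-stimulated genes listed beside it, all had a negative log2 fold change (median −0.465) and 6 were lower. Among them were *Stat2* (−0.42, SE 0.09, adjusted p = 0.00444), which carries the interferon signal to the nucleus, *Ifih1* (−0.37, 0.0374), a sensor of double-stranded RNA, *Zbp1* (−1.28, 0.0444), a sensor of nucleic acids, and *Ifi44* (−1.16, 0.0208) and *Rtp4* (−0.70, 0.0356). The smallest shift was that of *Ddx58* (RIG-I), at −0.08. The mean level of the list ran from −0.80 to 0.86 in A226Y and from −0.57 to 0.99 in WT mice, in log2 units around the mean of all mice, and the macrophage list from −0.73 to 1.07 and from −0.18 to 0.60, and their part in the *Eif2ak2* values was not tested. *Eif2ak2* lies on chromosome 17 from 78852564 to 78882573, on the chromosome of *Rps2* and 54.1 Mb from it.

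*Eif2ak3* (ENSMUSG00000031668) was at 9.98, 12.5 and 15.6 CPM in A226Y and at 10.4, 12.04 and 15.3 CPM in WT mice. The groups overlapped over nearly their whole range, with a log2 fold change of 0.03 (SE 0.10, 95% interval −0.16 to 0.23, adjusted p = 0.846). *Eif2ak4* (ENSMUSG00000005102) was at 7.94, 9.09 and 11.2 CPM in A226Y and at 8.23, 9.61 and 11.8 CPM in WT mice, and its log2 fold change was −0.06 (SE 0.08, 95% interval −0.23 to 0.11, adjusted p = 0.683). Over the 4 kinases, the 95% intervals of the ratio of A226Y to WT reached down to 0.853 (*Eif2ak4*) and up to 1.17 (*Eif2ak3*).

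*Atf4* (ENSMUSG00000042406, chromosome 15 from 80255184 to 80257541) was at 68.6, 77.8 and 95.5 CPM in A226Y and at 69.6, 78.8 and 88.4 CPM in WT mice. A226Y mice 23, 29 and 32 lay above every WT mouse, at 93.2, 95.5 and 94.1 CPM, and the other 7 fell inside the WT range or just under it. The log2 fold change was 0.03 (SE 0.08, 95% interval −0.13 to 0.19, adjusted p = 0.822).

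*Ddit3* (ENSMUSG00000025408, chromosome 10 from 127290774 to 127296288), which encodes the pro-apoptotic factor CHOP, was at 4.30, 5.45 and 7.34 CPM in A226Y and at 4.58, 6.14 and 8.97 CPM in WT mice. A226Y mice 3, 11 and 15 were below every WT mouse and none was above every WT mouse. The log2 fold change of −0.22 (SE 0.14, 95% interval −0.50 to 0.07, adjusted p = 0.306) was within the spread between mice. Its exons share 68 bases with *Mars* on the other strand.

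The genes for the eIF2 phosphatase differed in level but neither passed the test. *Ppp1r15a* (ENSMUSG00000040435, chromosome 7 from 45522916 to 45526268) was at 8.63, 11.8 and 14.1 CPM in A226Y and at 8.36, 9.82 and 12.9 CPM in WT mice. Of the A226Y mice, 7 of 10 were above the WT mean and 2, mice 29 and 32, above every WT mouse. The log2 fold change was 0.22 (SE 0.11, 95% interval −0.01 to 0.44, adjusted p = 0.188), and the two-sided exact permutation test of log2 CPM gave p = 0.0770 over all 43758 divisions of the mice. With surrogate variables the log2 fold change was 0.01 (adjusted p = 0.976). *Ppp1r15b* (ENSMUSG00000046062, chromosome 1 from 133131143 to 133139783) was at 118, 141 and 162 CPM in A226Y and at 128, 142 and 154 CPM in WT mice. Of the A226Y mice 1 was above and 2 were below every WT mouse, with a log2 fold change of 0.00 (SE 0.06, 95% interval −0.13 to 0.13, adjusted p = 0.977).

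*Trib3* rose in A226Y liver. This pseudokinase gene (ENSMUSG00000032715, chromosome 2 from 152337422 to 152344032) is a target of ATF4 and CHOP, its protein binds AKT, and it is also known to rise in the fasted liver. Its lowest, median and highest values were 3.95, 7.95 and 15.7 CPM in A226Y and 2.52, 4.73 and 6.72 CPM in WT mice. A226Y mice 3, 5, 11, 18 and 23 were above every WT mouse, and the other 5 lay inside the WT range. The highest value was that of mouse 23, the most deeply sequenced, and without it the log2 fold change was 0.67 (adjusted p = 0.0831). The mean was 8.55 ± 4.26 CPM (SD, n = 10) against 4.85 ± 1.42 CPM (SD, n = 8), a 1.76-fold higher level (95% interval 1.197 to 2.60), with a log2 fold change of 0.82 (SE 0.27, adjusted p = 0.0476, edgeR). The exact permutation test gave p = 0.0285 (two-sided). The adjusted p-value was above 0.05 when any 1 of A226Y mice 3, 5, 11, 18, 23 and 32 or WT mice 6, 13, 14, 21, 24, 28 and 33 was left out, with values between 0.0551 and 0.0870, and it was 0.0964 under limma-voom, 0.0564 in the robust fit, 0.0586 without the filter on low counts and 0.212 with surrogate variables (range over all settings 0.0145 to 0.212). The log2 fold change stayed between 0.67 and 0.91 in all of them.

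*Chac1* fell. It encodes a cyclotransferase that degrades glutathione and is a target of ATF4 (ENSMUSG00000027313, chromosome 2 from 119351229 to 119354381). It was at 0.470, 1.91 and 3.23 CPM in A226Y and at 1.09, 3.89 and 7.83 CPM in WT mice (lowest, median, highest). All 10 A226Y mice were under the WT mean, but only mouse 7 was under every WT mouse, because WT mouse 14 had 1.09 CPM. The mean was 1.92 ± 0.735 CPM (SD, n = 10) against 4.10 ± 2.17 CPM (SD, n = 8), 2.14-fold lower, a ratio of 0.468 (95% interval 0.299 to 0.732). The log2 fold change was −1.10 (SE 0.31, adjusted p = 0.0234, edgeR), and the exact permutation test gave p = 0.0150 (two-sided). These values rest on 14 to 110 counts per A226Y mouse and 28 to 224 per WT mouse. Without WT mouse 13 or WT mouse 33 the adjusted p-value was 0.0539 and 0.0515, and with surrogate variables it was 0.280 (range over all settings 0.00456 to 0.280). The log2 fold change was −1.003, −0.897 and −0.895 in these 3 settings.

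**Figure D2:**
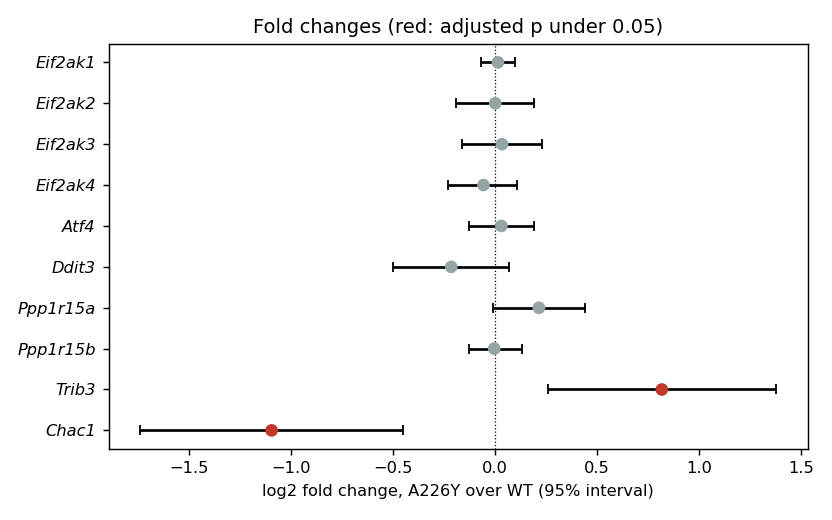
log2 fold change of A226Y over WT for the 10 genes, with 95% intervals from the fit over all tested genes. *Trib3* (0.82) and *Chac1* (−1.10) are drawn in red because their adjusted p-values are under 0.05, and the intervals of the other 8 genes cross 0.

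The mouse with the most *Trib3* was not the one with the most *Chac1* in either genotype. WT mouse 33, whose library had the lowest TMM factor (0.8943), had the most *Chac1* and the least *Trib3* of all 18 mice. The ratio of *Trib3* to *Chac1* CPM, chosen after these values were seen and not tested, was 1.45, 4.93 and 10.99 in A226Y and 0.321, 1.69 and 3.71 in WT mice (lowest, median, highest). With the genotype means removed, Pearson r between them was −0.04 (permutation p = 0.880, adjusted p = 0.968) and Spearman rho was −0.32 (permutation p = 0.201, adjusted p = 0.590), with r = 0.03 without the 2 mice farthest from the median of *Trib3*.

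**Figure D3:**
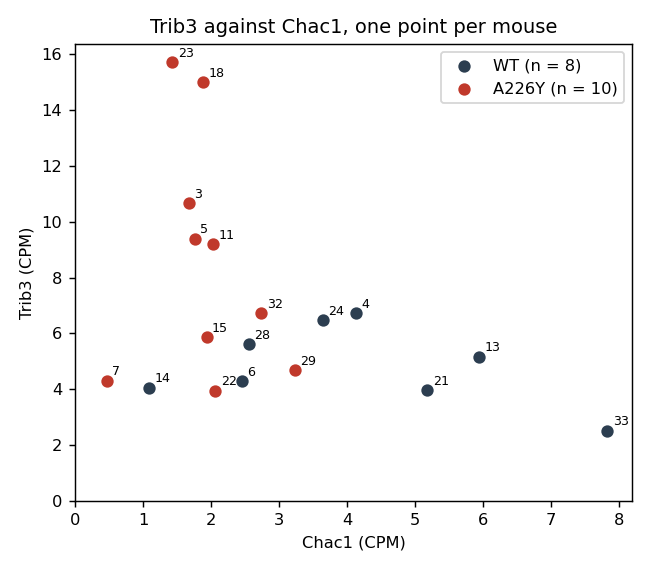
*Trib3* against *Chac1* in CPM, with 1 point per mouse and the mouse number beside it. A226Y mice (red) lie at 3.23 CPM of *Chac1* or less, with *Trib3* up to 15.7 CPM, while WT mice (dark) extend to 7.83 CPM of *Chac1* with *Trib3* at 6.72 CPM or less.

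Lists of genes of the fed and fasted state are given beside *Trib3* and *Chac1*. Of 12 fasting genes 11 had a positive log2 fold change (median 0.354), and 1 passed the test, *Ppargc1a* (0.74, SE 0.16, adjusted p = 0.00539), the coactivator of gluconeogenic genes. *Cyp4a14* had the largest value (0.97, adjusted p = 0.0585) and *Vnn1* the lowest (−0.41). All 11 feeding genes had a negative log2 fold change (median −0.608) and 6 fell, among them *Thrsp* (−2.11), *Srebf1* (−1.22), *Pklr* (−0.75), *Fasn* (−0.68) and *Acly* (−0.55), which serve glucose use and lipid synthesis. *Me1* had the smallest shift (−0.07). The mean level of the fasting list ran from −0.26 to 0.68 in A226Y and from −0.92 to 0.13 in WT mice, and that of the feeding list from −0.86 to 0.18 and from −0.04 to 0.64. The part of feeding state in the *Trib3* and *Chac1* differences was not tested.

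Levels were compared between genes as CPM per kilobase of exon, averaged over all 18 mice. *Atf4* stood highest at 34.1 ± 3.68 (SD), followed by *Ppp1r15b* at 25.02 ± 1.996 and *Eif2ak1* at 10.3 ± 0.471. These 3 genes kept this order in each of the 18 mice and their ranges did not overlap. Next came *Ppp1r15a* (3.71), *Ddit3* (3.55), *Trib3* (3.25), *Eif2ak2* (2.89), *Eif2ak3* (2.10), *Chac1* (1.77) and *Eif2ak4* (1.28). Neighbours in this lower part of the order overlapped, and *Ppp1r15a* exceeded *Ddit3* in 12 of 18 mice and *Trib3* exceeded *Eif2ak2* in 8. CReP mRNA thus stood above GADD34 mRNA per length, and HRI was the kinase with the most mRNA per length.

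The genes differed in the SD of their values between mice, which includes counting error and was not compared at equal count level. *Eif2ak1* had at least 1438 counts in every mouse, and *Chac1* had as few as 14. The SD of log2 CPM within genotypes was 0.068 for *Eif2ak1*, and 99.8% of all tested genes had a larger one. It was 0.119 for *Ppp1r15b*, 0.157 for *Atf4*, 0.166 for *Eif2ak4*, 0.199 for *Eif2ak2* and 0.206 for *Eif2ak3*, and the median over all tested genes was 0.208. The 4 genes with the largest SDs had 0.236 for *Ppp1r15a*, 0.303 for *Ddit3*, 0.617 for *Trib3* and 0.784 for *Chac1*. A larger SD than that of *Trib3* was found in 5.95% of tested genes, and a larger one than that of *Chac1* in 2.59%. The coefficient of variation of *Trib3* was 49.9% in A226Y and 29.2% in WT mice, while that of *Chac1* was 38.2% and 52.8%.

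None of the 45 pairs of genes had correlated levels after adjustment, and 6 had an unadjusted permutation p under 0.05. Values were centred on each genotype, and p-values came from 100000 permutations within genotype. *Atf4* and *Ddit3* gave Pearson r = 0.69 (permutation p = 0.00285, adjusted p = 0.118) and Spearman rho = 0.72 (permutation p = 0.00154, adjusted p = 0.0693), with r = 0.62 without the 2 mice farthest from the median of *Atf4*, and r = 0.70 within A226Y and 0.70 within WT mice. *Ddit3* and *Ppp1r15a* gave r = 0.63 (permutation p = 0.00732, adjusted p = 0.118) and rho = 0.67 (permutation p = 0.00396, adjusted p = 0.0707), with r = 0.79 without 2 mice, 0.92 within A226Y and 0.28 within WT mice. For *Atf4* and *Ppp1r15a* they were r = 0.61 (permutation p = 0.0115, adjusted p = 0.129) and rho = 0.57 (permutation p = 0.0213, adjusted p = 0.192), with r = 0.48 without 2 mice, 0.87 within A226Y and 0.17 within WT mice. The pair with a negative r among the 6 was *Eif2ak1* and *Eif2ak3*, with r = −0.56 (permutation p = 0.0213, adjusted p = 0.192) and rho = −0.66 (permutation p = 0.00471, adjusted p = 0.0707), and r = −0.58 without 2 mice, −0.63 within A226Y and −0.46 within WT mice. *Eif2ak3* and *Ddit3* gave r = 0.51 (permutation p = 0.0343, adjusted p = 0.257) and rho = 0.46 (permutation p = 0.0615, adjusted p = 0.328), with r = 0.36 without 2 mice, 0.57 within A226Y and 0.45 within WT mice. Of the 45 pairs, *Eif2ak1* and *Eif2ak4* had the largest gap between genotypes, with r = 0.94 in A226Y and −0.38 in WT mice, and no such gap was tested. *Eif2ak1* and *Ppp1r15b* gave r = 0.61 and rho = 0.65 (permutation p = 0.00785 and 0.00635, adjusted p = 0.118 and 0.0714), with r = 0.64 without 2 mice and in A226Y and 0.63 in WT mice. *Atf4* had r = 0.15 with *Trib3* and −0.08 with *Chac1* (permutation p = 0.587 and 0.758), and rho = 0.17 and −0.03 (permutation p = 0.533 and 0.922). Without 2 mice r was 0.38 with *Trib3* and −0.35 with *Chac1*, and within genotypes it was 0.10 in A226Y and 0.25 in WT mice for *Trib3* and 0.32 and −0.58 for *Chac1*. These pairs share libraries and scaling, and with library size as the only scaling 4 of the 45 passed.

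**Figure D4:**
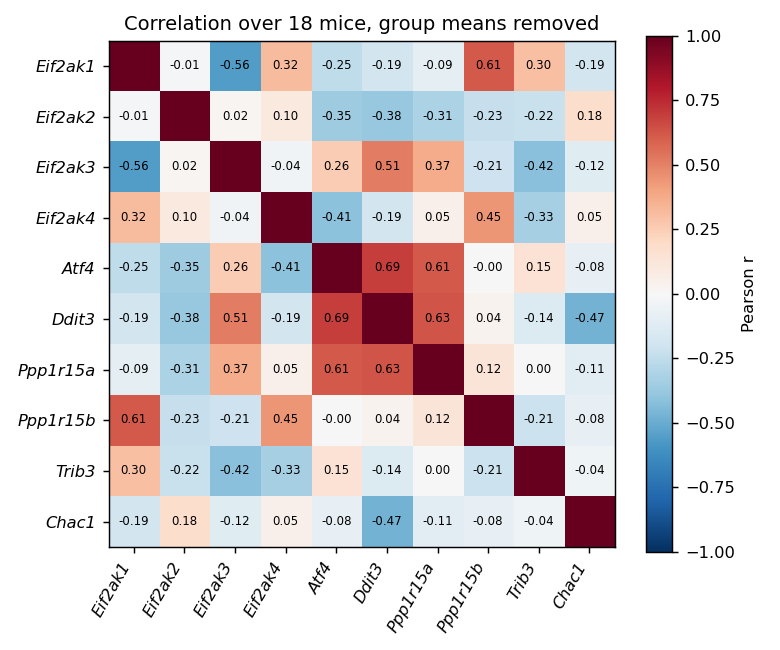
Pearson r of log2 CPM between the 10 genes over 18 mice, after the mean of each genotype was removed, from −1 (blue) to 1 (red). *Atf4*, *Ddit3* and *Ppp1r15a* have r of 0.61 to 0.69 with each other over all mice, though 2 of these 3 values are 0.92 and 0.87 within A226Y and 0.28 and 0.17 within WT mice, and *Atf4* has 0.15 with *Trib3* and −0.08 with *Chac1*.

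Among 11941 tested genes whose mean was 1 CPM or more, the 2 whose centred log2 CPM was most like that of each gene were found, and their r has no p-value because they were picked for it. Their rho ran from 0.674 to 0.905. For *Eif2ak2* they were *Mis18a* (r = 0.82) and *Rsad2* (r = 0.78), an interferon-induced antiviral gene. For *Atf4* they were *Tspo* (0.80) and *Sertad1* (0.79), for *Ddit3* *Commd9* (0.81) and *Asna1* (0.80), and for *Ppp1r15a* *Srpk1* (0.84) and *Cltb* (0.81). *Trib3* was most like *Mrps18c* (0.83) and *Thra* (0.81), and *Chac1* most like *Gcfc2* (0.83) and *Tctn1* (0.77). For *Eif2ak1* they were *Ptdss1* (0.88) and *Usp22* (0.88), for *Eif2ak3* *4931428F04Rik* (0.80) and *Golga1* (0.80), for *Eif2ak4* *Sppl2a* (0.89) and *Twsg1* (0.88), and for *Ppp1r15b* *Kyat3* (0.84) and *Gtf2h1* (0.83).

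Around the kinases, the substrate and its exchange factor showed no call. None of the 8 eIF2 and eIF2B subunit genes passed the test (1 had an unadjusted p-value under 0.05), and their log2 fold changes lay between −0.01 (*Eif2s3x*) and 0.19 (*Eif2b3*). Among 11 regulators of the kinases, *Dnajc3* (p58IPK, an inhibitor of PERK and PKR) rose to a mean of 288 ± 25.8 CPM over 10 A226Y mice against 246 ± 18.1 CPM over 8 WT mice (± SD), by 0.23 on the log2 scale (SE 0.07, adjusted p = 0.0253, edgeR). *Prkra* (PACT, an activator of PKR) fell to 12.3 ± 1.91 CPM against 15.96 ± 2.06 CPM, by 0.37 on the log2 scale (SE 0.10, adjusted p = 0.0154, edgeR). *Impact*, an inhibitor of GCN2, had the largest positive value (0.29, adjusted p = 0.112).

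Downstream, the targets of ATF4 were called in both directions. Of 36 listed genes 32 were tested, 4 were higher and 2 lower, beside 7.27% higher and 7.03% lower over all tested genes, with a median log2 fold change of 0.078. *Cth*, the last enzyme of cysteine synthesis, rose from a median of 453 CPM in WT to 823 CPM in A226Y (log2 fold change 0.81, SE 0.21, adjusted p = 0.0139, edgeR). *Atf5*, a transcription factor translated under the same control as *Atf4*, rose by 0.51 (adjusted p = 0.0402), the amino acid transporter gene *Slc38a2* by 0.48 (adjusted p = 0.0489) and the glycyl-tRNA synthetase gene *Gars* by 0.25 (adjusted p = 0.0121). *Shmt2*, of mitochondrial serine and glycine metabolism, fell by 0.43 (adjusted p = 0.00159), with 140 to 170 CPM in A226Y against 170 to 234 CPM in WT mice. *Eif4ebp1*, which encodes the translation repressor 4E-BP1, fell by 0.33 (adjusted p = 0.00253), with 28.8 to 34.9 CPM in A226Y against 35.1 to 45.5 CPM in WT mice. In both of these genes every A226Y mouse was below every WT mouse. *Atf3* had the lowest value of the list (−0.59, adjusted p = 0.198).

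Among 9 tested partners of ATF4, *Atf5* was again the only one called, and *Batf3* had the lowest value (−0.64, adjusted p = 0.121). Of 9 tested CHOP targets and apoptosis genes, *Gadd45a*, a gene of growth arrest, fell to 4.01 ± 1.28 CPM over 10 A226Y mice against 6.83 ± 2.02 CPM over 8 WT mice (± SD), by 0.77 on the log2 scale (adjusted p = 0.0142, edgeR). The highest value in that list was that of *Bcl2l11* (0.18, adjusted p = 0.421). In the IRE1 and ATF6 arms of the endoplasmic reticulum response, 1 of 18 genes passed: *Dnajb11*, a co-chaperone of BiP, rose by 0.41 (SE 0.11, adjusted p = 0.0173, edgeR). *Sdf2l1* had the largest value there (0.49, adjusted p = 0.275) and *Xbp1* the lowest (−0.14, adjusted p = 0.165). Of the 18 genes 14 had a positive log2 fold change, and the median was 0.11.

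**Figure D5:**
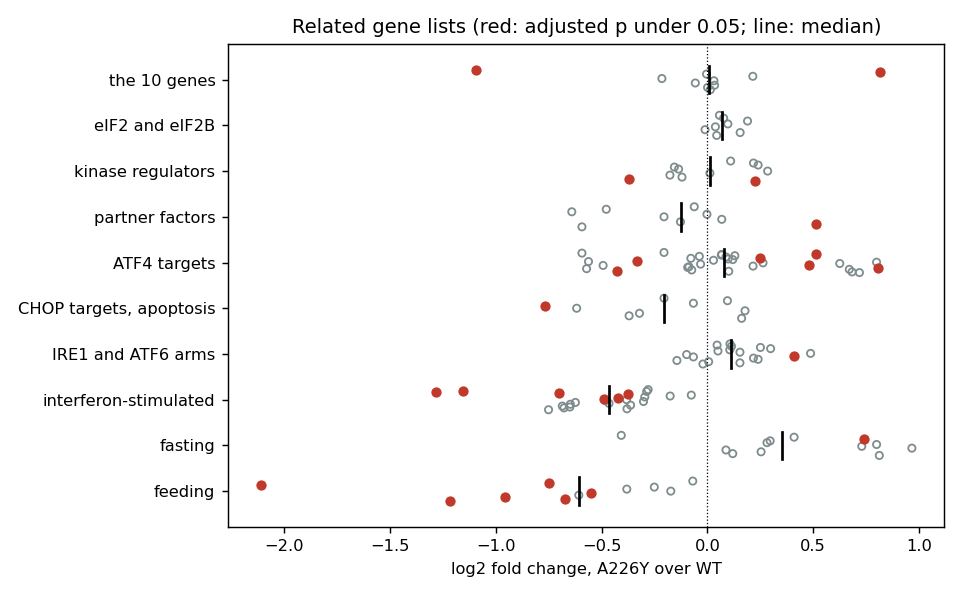
log2 fold change (A226Y over WT) of every tested gene in the 10-gene set and in 9 related lists, with red points for an adjusted p under 0.05 and a line at the median. The medians of the 10 genes (0.007) and of the ATF4 targets (0.078) lie near 0, while those of the interferon (−0.465) and feeding (−0.608) lists lie below it and that of the fasting list (0.354) above it.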

How the data were processed

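The values deposited by the authors are raw counts of reads for each Ensembl gene, 1 table per mouse. The methods name RSEM with an Ensembl annotation, while the submitters' processing notes name fastp, STAR, featureCounts and the build GRCm38, and which of them gave these counts was not settled. A gene was tested if 50% or more of the mice of either genotype had 10 or more counts (13353 genes) with edgeR 4.0.16 in R 4.3.3 (TMM, quasi-likelihood test, no covariates, Benjamini-Hochberg adjustment over all tested genes). The standard error is the log2 fold change divided by the square root of F. Log2 CPM used a prior count of 2. The mean level of a list is the mean of its genes' log2 CPM, centred over all mice. Symbols, coordinates and exon lengths are from GENCODE M21 (GRCm38), which matched 22291 identifiers. Each mouse had at least 23850565 counts, but *Chac1* had as few as 14 in a mouse. Counting error and the spread between mice were not separated. Alternatives were 3 other scalings, 2 other filters, DESeq2 1.42.0, limma-voom 3.58.1, a robust fit, offsets on transcript length and GC content, 4 surrogate variables from sva 3.50.0, and each mouse left out in turn. The titles give each mouse its own number, taken here as separate animals. Within a genotype no library was a copy of another (chi-square per degree of freedom at least 19.71). Libraries of different genotypes were not compared in this way. The genes named from lists are those past the threshold, at most 6 per list, and the largest positive and negative log2 fold changes. Some genes that this rule names are not reported here. The genes described and all lists were chosen with earlier results of these data known.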

Additional observations from a re-analysis of the deposited data

How the results depend on the processing

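No paired analysis was possible because the 2 genotypes share no mouse number. The count of stress response genes called, 2 in the reported fit, was 1 with no filter, under limma-voom and in the robust fit, 0 with surrogate variables, and between 0 and 2 with 1 mouse left out. Over all tested genes the count, 1910 as reported, was 50 with surrogate variables and between 1255 and 2560 with 1 mouse left out. With library size as the only scaling it was 2059, of which 67.9% were higher (50.8% as reported), 3 members rather than 2 had an exact permutation p under 0.05 (*Ppp1r15a* joined), and 4 gene pairs rather than 0 passed adjustment. The cause was not tested.

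The sign of some log2 fold changes that were within 0.04 of 0 as reported turned. *Eif2ak2* was −0.003 with upper quartile scaling, −0.004 under limma-voom, −0.009 with the length offset and −0.044 with the GC offset. *Ppp1r15b* was 0.038 with library size only and 0.007 with surrogate variables, where *Eif2ak3* was −0.164. With 1 mouse left out, log2 fold changes ran from −0.004 to 0.027 for *Eif2ak1*, from −0.051 to 0.038 for *Eif2ak2*, from −0.001 to 0.080 for *Eif2ak3* and from −0.029 to 0.022 for *Ppp1r15b*. With library size only, the differences of log2 CPM of *Eif2ak2* and *Ppp1r15b* were 0.036 and 0.037. In the same setting 6 correlations turned from negative. *Eif2ak1* had r of 0.24 with *Eif2ak2* (−0.011 as reported), 0.167 with *Atf4* (−0.253), 0.149 with *Ddit3* (−0.187) and 0.195 with *Ppp1r15a* (−0.089), *Atf4* and *Ppp1r15b* had 0.225 (−0.003), and *Eif2ak3* and *Eif2ak4* had 0.00 (−0.039). Counts were lowest for *Chac1*, with as few as 14 in a mouse.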
